A study of Homo sapiens with 4 samples.

Results

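The genes described here are glycolytic enzymes, glucose transporters and genes of the hypoxia response, a set of 35 genes that includes ENO2, the neuronal isozyme of enolase. A probe set, the group of oligonucleotides that reports 1 transcript on an Affymetrix array, was taken when the platform annotation named one of these genes and no other. This gave 59 probe sets for 32 genes, of 11963 genes named in the same way. CA9, SLC16A1 and SLC16A3 are not analysed here, and 2 probe sets that name SLC2A3 together with SLC2A14 were left out. RNA came from LNCaP, a line of human prostate cancer cells that respond to androgen, kept in medium with 10% fetal bovine serum. One group of 2 samples had been transiently transfected by lipofection with a MED1 expression vector, and the other group of 2 with the empty vector. After 24 hours RNA was extracted, and 200 ng per sample was labelled for the array. MED1 is a subunit of Mediator, the complex that passes signals from transcription factors to RNA polymerase II. The labels name no selection of cells that took up a vector, and do not say whether the duplicates were separate cultures. For the second group the labels disagree: 1 text field mentions the MED1 vector, but the titles and the transfection field give the empty one, and these were followed.

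Glycolysis turns glucose into pyruvate in the cytosol, and lactate dehydrogenase turns pyruvate into lactate when it is not sent to mitochondria. Several of its steps are carried out by isozymes encoded by separate genes, some found in nearly all cells and others richest in brain or muscle. In low oxygen the transcription factor HIF-1 escapes hydroxylation and breakdown, and it raises glucose transporters, most glycolytic enzymes and genes such as BNIP3 and CA9. The question was whether the lower signal of ENO2 in cells given MED1 is shared by these genes.

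The values are MAS5 signals, a linear measure of brightness that the authors had scaled to the same trimmed mean on every array (500.2). Groups were compared with limma on log2(signal + 16) across 13329 probe sets that passed a filter on dim signals, with Benjamini-Hochberg adjustment over all of them and a threshold of 0.05. Of the gene set, 53 probe sets for 30 genes passed the filter. A MED1 probe set read 559 and 807 with MED1, against 292 and 315 with empty vector, and passed (log2 fold change 1.11 ± 0.16 SE, limma adjusted p = 0.032). Without empty vector replicate 1 its adjusted p was 0.0607, and without empty vector replicate 2 it was 0.0869 (limma). A brighter MED1 probe set gave 0.09 ± 0.10 (limma adjusted p = 0.83). The prostate genes of the cell line were well expressed: KLK3, which encodes prostate-specific antigen, read 3659 and 3990 with MED1 and 4166 and 4208 with empty vector by its brighter probe set. Over 11 probe sets of 7 luminal prostate markers, of 10 on the list, the summed signal was 27323 and 29571 with MED1 and 29371 and 31448 with empty vector. Of the 11, 0 passed (limma). At an unadjusted p of 0.05 in limma, 3 were lower with MED1, or 27.3%, beside 5.20% of all tested probe sets. The 3 name only KLK2 and TMPRSS2. Both MED1 arrays were below both empty vector arrays on 6 of the 11, or 54.5%, beside 22.6%. All KLK2 probe sets are among the 6, and probe sets of 1 gene are not independent. On 3 of the 11 the log2 fold change was above 0: another TMPRSS2 probe set (0.17), HOXB13 (0.10) and KRT18 (0.030). Whether the lower marker values have a part in the lower values given below was not tested. Leukocyte markers were no higher than 38.9 on any array. The highest value on any array was 150 for endothelial markers (VWF), 156 for fibroblast markers (COL1A1) and 84.0 for red cell markers (HBB). The ratio of 3' to 5' signal of the GAPDH control lay between 1.16 and 1.27, and that of the actin control was 9.40 and 9.32 with MED1 and 8.14 and 9.45 with empty vector. On every array the actin ratio was far above the GAPDH ratio. Whether the actin ratios or their differences bear on any result below was not tested, also where probe sets of 1 gene disagree.

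None of the 53 tested probe sets passed the threshold, where 0.293% of all tested probe sets did (39 of 13329, limma), 0.188% lower with MED1 and 0.105% higher. A share that small would give less than 1 call among 53, so the 0 by itself sets the genes apart from nothing. At an unadjusted p of 0.05 in limma, 6 of the 53 passed and all were lower with MED1 (ENO2, ALDOC, BNIP3, BNIP3L, PGK1 and 1 SLC2A3 probe set). Over all tested probe sets 9.20% passed that rule in either direction and 5.20% were lower. Both MED1 arrays lay below both empty vector arrays on 15 of the 53 probe sets, or 28.3%, beside 22.6% of all tested probe sets. They lay above both on 6, or 11.3%, beside 17.2%. With each gene taken by its brightest tested probe set, the median log2 fold change over the 30 genes was -0.012, and 18 of the 30 values were negative. The median over all tested probe sets was -0.016. With each array centred on its median these medians were 0.040 and 0.036. The log2 fold changes of the 53 probe sets ran from -0.97 to 0.33, and 31 of them, or 58.5%, lay within 0.1 of 0, beside 42.6% of all tested probe sets. On 39 of the 53 probe sets, the 2 arrays of 1 group were farther apart than the 2 group means, as they were on 73.0% of all tested probe sets. A log2 fold change under -0.32 was found on 5 of the 53, or 9.43%, beside 7.46% of all tested probe sets, and these name ENO2, SLC2A3, ALDOC, BNIP3L and BNIP3. The SLC2A3 probe set passed the filter through its empty vector signal alone, so it had to differ. Of the remaining 52 probe sets, 5 were lower at an unadjusted p of 0.05, 4 lay under -0.32 and 14 had both MED1 arrays below both empty vector arrays.

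**Figure D1:**
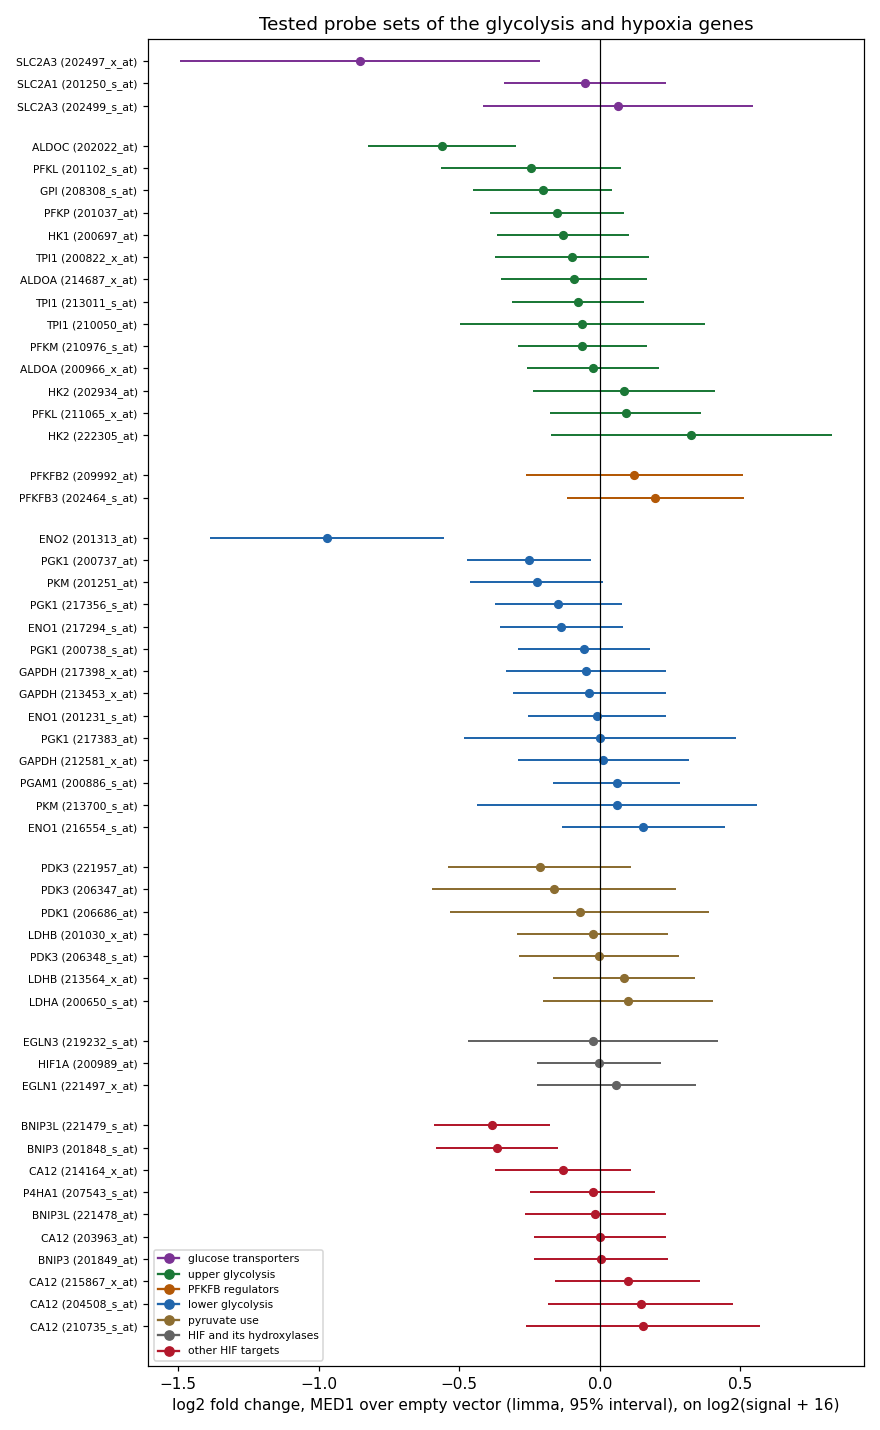
Log2 fold change of MED1 over empty vector (x axis, on log2(signal + 16)) for the 53 tested probe sets (rows), grouped and coloured by role. Points are limma estimates and lines their 95% intervals, unadjusted. ENO2 has the lowest value, -0.97, and most values lie within 0.1 of 0.

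ENO2, which converts 2-phosphoglycerate to phosphoenolpyruvate and is used clinically as neuron-specific enolase, read 104 and 118 with MED1, against 199 and 271 with empty vector. Both MED1 arrays were below both empty vector arrays. The log2 fold change was -0.97 ± 0.18 (SE, 95% interval -1.38 to -0.56), a ratio of 0.511. It did not pass over all tested probe sets (limma, Benjamini-Hochberg adjusted p = 0.0983). ENO2 was singled out with this value already known, so it is given as a description. Only 1 probe set measured ENO2, so its value could not be compared with that of another. In the ordering of all 13329 tested probe sets it had the 28th lowest log2 fold change, among the lowest 0.21%. With 1 array left out the log2 fold change was -1.18 to -0.76. The adjusted p (limma) was then 0.0281 when MED1 replicate 1 was dropped and 0.00319 when MED1 replicate 2 was. It was 0.0508 when empty vector replicate 1 was dropped and 0.38 when empty vector replicate 2 was. Fewer cells with the transcript and less transcript per cell cannot be told apart in these bulk samples.

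ENO1, the enolase of most tissues, was measured by 3 probe sets. The brightest read 11128 and 12225 with MED1, against 11397 and 12091 with empty vector, and the groups overlapped. Its log2 fold change was -0.0093 ± 0.11 (95% interval -0.25 to 0.23, limma adjusted p = 0.989). The other ENO1 probe sets gave -0.14 and 0.16, each with no overlap between groups, in opposite directions. ENO3, the muscle enolase, gave 0.31 ± 0.23. Within each array the log2 ratio of ENO2 to ENO1 signal was -6.54 and -6.51 with MED1 and -5.73 and -5.40 with empty vector. The groups do not overlap and differ by -0.96. The ratios are given as a description, since an exact test of 2 arrays against 2 cannot go below p = 0.333.

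ALDOC, the aldolase richest in brain and measured by 1 probe set, read 1020 and 1146 with MED1, against 1464 and 1756 with empty vector. The groups did not overlap. The log2 fold change was -0.56 ± 0.12 (95% interval -0.82 to -0.30), a ratio of 0.678, and did not pass (limma adjusted p = 0.141). Without MED1 replicate 2 it passed (-0.64, limma adjusted p = 0.00495), and it did not pass without any one of the other arrays. ALDOA, the aldolase of muscle and most other tissues, read 9058 and 10388 with MED1 and 9809 and 10909 with empty vector by its brighter probe set. Those groups overlapped, with a log2 fold change of -0.093 ± 0.11 (95% interval -0.35 to 0.16), and a second ALDOA probe set gave -0.025 ± 0.10. The log2 ratio of ALDOC to ALDOA was -3.13 and -3.16 with MED1 and -2.73 and -2.62 with empty vector, a difference of -0.47 without overlap. This ratio restates the values above, with a lower gene set against one whose groups overlapped, and is given as a description. Other isozyme pairs were not compared in this way. Both ALDOA probe sets carry the suffix _x_at, which Affymetrix gives to designs that may match other transcripts too. In all, 13 of the 53 tested probe sets carry it, and the others name CA12, EGLN1, GAPDH, LDHB, PFKL, SLC2A3 and TPI1.

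**Figure D2:**
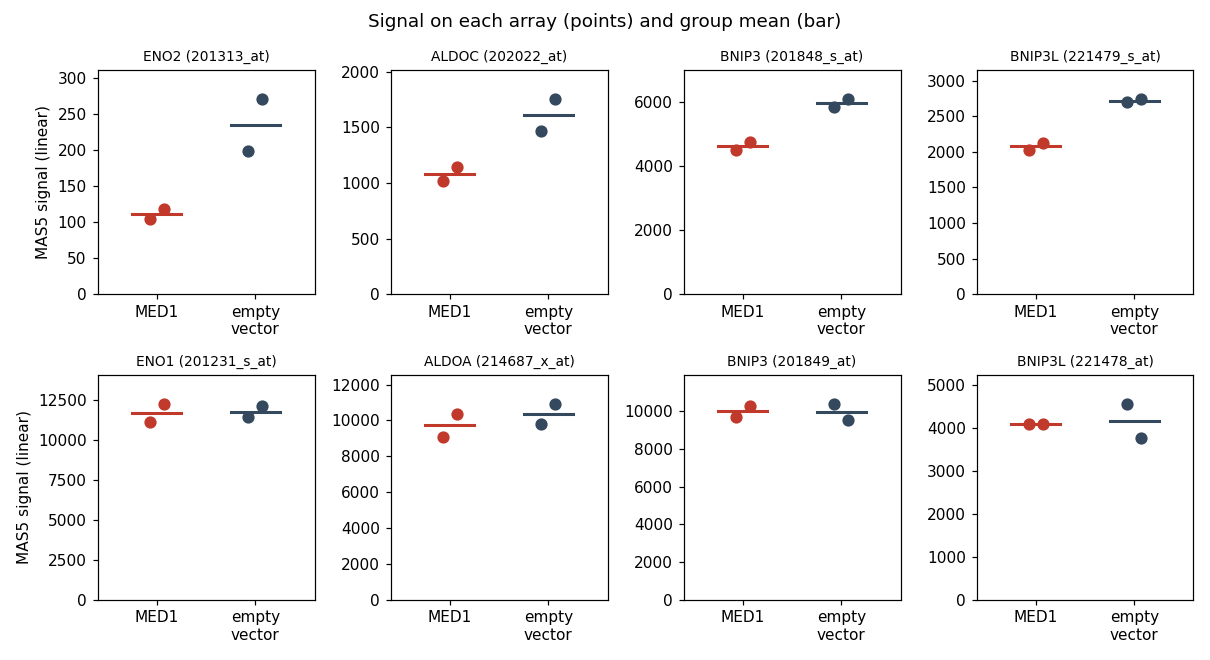
MAS5 signal (y axis, linear, from 0) on each array for 8 probe sets, with MED1 at left and empty vector at right; points are arrays and bars are means of 2. In the upper row (ENO2, ALDOC and the dimmer BNIP3 and BNIP3L probe sets) the groups do not overlap, and in the lower row (ENO1, ALDOA and the brighter BNIP3 and BNIP3L probe sets) they do.

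The promoters of both isozyme pairs, and of the hypoxia target BNIP3, are shown because the within-array ratios above and below turn on these genes. The core of the site bound by HIF-1 was searched as ACGTG and GCGTG on both strands, in windows of 300 bases that span the RefSeq start (GRCh38.p14). Matches are in capitals. A palindromic CACGTG counts on both strands, as 2 overlapping matches. The windows are chr12:6914330-6914629 on the plus strand for ENO2, chr1:8878637-8878936 on the minus strand for ENO1, chr17:28576846-28577145 on the minus strand for ALDOC, chr16:30064029-30064328 on the plus strand for ALDOA and chr10:131981874-131982173 on the minus strand for BNIP3.
ENO2: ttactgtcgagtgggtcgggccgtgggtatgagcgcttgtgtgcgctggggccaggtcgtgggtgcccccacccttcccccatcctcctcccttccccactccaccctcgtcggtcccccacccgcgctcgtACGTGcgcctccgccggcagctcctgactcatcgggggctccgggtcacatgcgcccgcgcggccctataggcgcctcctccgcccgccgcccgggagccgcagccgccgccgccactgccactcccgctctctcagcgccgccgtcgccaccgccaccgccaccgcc
ENO1: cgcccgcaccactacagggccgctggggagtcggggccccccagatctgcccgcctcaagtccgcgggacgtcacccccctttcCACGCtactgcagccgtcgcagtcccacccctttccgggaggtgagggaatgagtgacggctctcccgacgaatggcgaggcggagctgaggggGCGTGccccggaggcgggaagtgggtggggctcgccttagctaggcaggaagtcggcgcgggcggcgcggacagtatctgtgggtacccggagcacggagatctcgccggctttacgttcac
ALDOC: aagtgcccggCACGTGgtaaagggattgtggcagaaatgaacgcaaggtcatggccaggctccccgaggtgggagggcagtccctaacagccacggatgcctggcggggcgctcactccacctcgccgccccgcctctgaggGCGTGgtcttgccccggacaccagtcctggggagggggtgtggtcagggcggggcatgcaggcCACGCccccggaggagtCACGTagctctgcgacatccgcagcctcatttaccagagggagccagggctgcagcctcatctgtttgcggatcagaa
ALDOA: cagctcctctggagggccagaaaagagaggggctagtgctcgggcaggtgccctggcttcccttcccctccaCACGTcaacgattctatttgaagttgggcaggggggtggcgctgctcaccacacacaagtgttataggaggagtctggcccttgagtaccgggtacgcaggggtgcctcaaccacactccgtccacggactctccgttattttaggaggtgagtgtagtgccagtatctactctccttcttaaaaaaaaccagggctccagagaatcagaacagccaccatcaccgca
BNIP3: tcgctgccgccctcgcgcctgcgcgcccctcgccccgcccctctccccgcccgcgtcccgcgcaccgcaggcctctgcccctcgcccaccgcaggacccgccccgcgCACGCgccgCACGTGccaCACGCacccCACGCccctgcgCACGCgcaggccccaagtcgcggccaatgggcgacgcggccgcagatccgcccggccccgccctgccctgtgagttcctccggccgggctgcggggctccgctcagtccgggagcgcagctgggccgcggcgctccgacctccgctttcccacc

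ENO2 had 1 match, ENO1 2, ALDOC 5, ALDOA 1 and BNIP3 6. Of the 32 genes with a probe set, 29 had a promoter in the RefSeq table, and 22 of these 29 windows held at least 1 match, or 75.9%. The share was 64.9% over the promoters of 6628 tested genes and 48.4% over all 27305 promoters of this length. LDHA, at a log2 fold change of 0.10, also had 6 matches. A match is a stretch of letters and not a shown binding site.

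Glucose enters through transporters. SLC2A1, the GLUT1 transporter of most proliferating cells, read 431 and 470 with MED1 and 428 and 510 with empty vector, which overlap (-0.053 ± 0.13, limma adjusted p = 0.936). SLC2A3, the high-affinity GLUT3 transporter, was dim. One of its probe sets read 25.9 and 20.3 with MED1, against 69.2 and 42.3 with empty vector. With both MED1 arrays below the filter level, this probe set was tested only because its empty vector signal was high, and its difference of -0.85 on the log2 scale is given as a description. A brighter SLC2A3 probe set read 70.3 and 78.9 with MED1 and 78.7 and 62.9 with empty vector, which overlap (0.066 ± 0.21). The SLC2A3 probe sets thus disagree. A further probe set of each transporter was below the filter and not tested.

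Among the enzymes of the upper part of the pathway, 14 probe sets for 9 genes were tested, 11 of them (78.6%, beside 53.5% of all tested probe sets) with negative values, and a median over probe sets of -0.085. The groups did not overlap on 4 of them in the lower direction, or 28.6%, and on 2 in the higher, or 14.3%, close to the 22.6% and 17.2% of all tested probe sets. GPI, which converts glucose 6-phosphate to fructose 6-phosphate, read 3816 and 4273 with MED1, against 4349 and 4976 with empty vector (-0.20 ± 0.11, limma adjusted p = 0.60). PFKP, the platelet phosphofructokinase, read 1328 and 1555 with MED1, against 1575 and 1623 with empty vector (-0.15 ± 0.10). In neither did the groups overlap, and in both the 95% interval held 0. The liver phosphofructokinase PFKL gave 0.092 by its brighter probe set and -0.24 by the dimmer one, each without overlap and in opposite directions. The muscle phosphofructokinase PFKM gave -0.061 and the triosephosphate isomerase TPI1 gave -0.098 to -0.062 over 3 probe sets. HK1 and HK2, the hexokinases that trap glucose as glucose 6-phosphate, gave -0.13 ± 0.10 and 0.087 ± 0.14. HK2 read 2059 on MED1 replicate 1 and 1478 on MED1 replicate 2, with both empty vector arrays, at 1670 and 1613, between them. A dim second HK2 probe set had the highest value of the whole set, 0.33 ± 0.22.

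The PFKFB enzymes set the level of fructose 2,6-bisphosphate, which activates phosphofructokinase. PFKFB3 read 363 and 326 with MED1 and 272 and 326 with empty vector (0.20 ± 0.14, limma adjusted p = 0.69). PFKFB2 read 126 and 132 with MED1, against 123 and 111 with empty vector, with no overlap and a difference of 0.12 ± 0.17. A second PFKFB2 probe set, at 8.41 and 4.59 with MED1 and 44.0 and 18.5 with empty vector, and PFKFB4, at 7.05 and 4.46 with MED1 and 13.6 and 8.15 with empty vector, were below the filter and not tested. These 2 dim probe sets were lower on both MED1 arrays, opposite to the brighter PFKFB2 probe set.

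In the lower part of the pathway, 14 probe sets for 6 genes were tested, with a median over probe sets of -0.043. Of the 14, 10 had negative values (71.4%, beside 53.5% of all tested probe sets). Both MED1 arrays were below both empty vector arrays on 6, or 42.9%, beside 22.6%. They were above both on 2, or 14.3%, beside 17.2%. The 6 include the ENO2 probe set and 3 of PGK1. PGK1, which makes the first ATP of the payoff phase, was measured by 4 probe sets. They gave -0.25 ± 0.10, -0.15 ± 0.10, -0.055 ± 0.10 and -0.00028 ± 0.21. On 3 of them both MED1 arrays lay below both empty vector arrays, beside 22.6% of all tested probe sets. These probe sets measure 1 gene on the same arrays and are not independent. For those at -0.15 and -0.055, the arrays of 1 group were farther apart than the group means. The PGK1 probe set with the lowest value read 3048 and 3097 with MED1, against 3873 and 3460 with empty vector (limma adjusted p = 0.47). The brightest read 12049 and 12379 with MED1, against 12432 and 12955 with empty vector. PKM, a pyruvate kinase gene, read 610 and 643 with MED1, against 708 and 762 with empty vector (-0.22 ± 0.10, limma adjusted p = 0.564). A dim second PKM probe set gave 0.061. GAPDH, often used as a reference gene, gave 0.013, -0.037 and -0.048 over 3 probe sets, all overlapping between groups. PGAM1, the phosphoglycerate mutase, read 9998 and 10124 with MED1, against 9478 and 9813 with empty vector, a difference of 0.061 ± 0.10.

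Pyruvate is reduced to lactate by LDHA and LDHB, or held back from mitochondria when the kinases PDK1 and PDK3 switch off pyruvate dehydrogenase. LDHA read 13778 and 17421 with MED1 and 13885 and 15055 with empty vector (0.10 ± 0.13, limma adjusted p = 0.863). The LDHB probe sets gave 0.085 and -0.025, both with overlap. PDK1 read 136 and 148 with MED1, and 185 and 121 with empty vector, so the empty vector samples span the MED1 values. PDK3 gave -0.0021, -0.16 and -0.21 over 3 probe sets. The last of these read 309.8 and 284.9 with MED1, against 310.0 and 388.4 with empty vector, so that less than 1 unit of signal parted the groups.

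Most bright probe sets of the set differed more between arrays of 1 group than between groups, as did most of all tested probe sets. Of the 16 tested probe sets with a mean signal of at least 5000, which name 10 genes, 15 were higher on MED1 replicate 2 than on MED1 replicate 1, and 15 were higher on empty vector replicate 2 than on empty vector replicate 1. The order of the replicates was not counted over other probe sets. On 14 of the 16 the larger of these gaps exceeded the difference between group means, beside 73.0% of all tested probe sets. Their log2 fold changes ran from -0.37, for BNIP3, to 0.10, for LDHA.

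**Figure D3:**
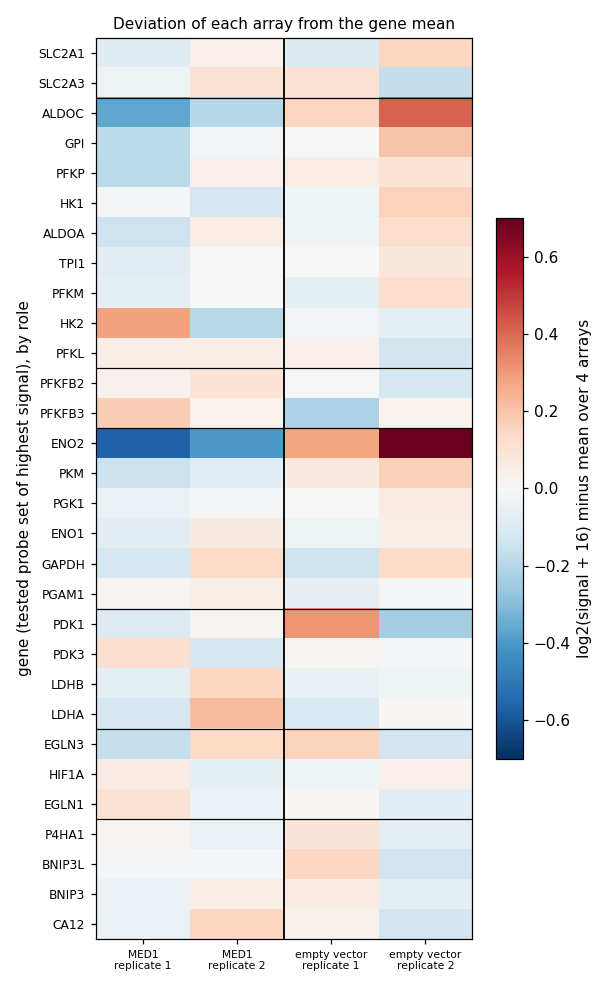
Deviation of each array (columns, MED1 at left) from the 4-array mean of log2(signal + 16) for the 30 tested genes (rows, by role, each by its brightest tested probe set); blue is lower and red higher. ENO2 and ALDOC are blue on both MED1 arrays and red on both empty vector arrays, while rows such as GAPDH differ between the arrays of 1 group.

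HIF1A, the oxygen-regulated subunit of HIF-1, read 5347 and 4917 with MED1 and 5023 and 5254 with empty vector (-0.0027 ± 0.10, 95% interval -0.22 to 0.22). EGLN1, the prolyl hydroxylase that marks HIF for breakdown, gave 0.059 ± 0.12. EGLN3, a hydroxylase that HIF itself induces, gave -0.025 ± 0.20 at signals of 102 and 129 with MED1 and 131 and 104 with empty vector. The groups overlapped for all 3 genes. HIF-1 is controlled mainly through the stability of its protein, which arrays do not measure.

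Among the other HIF targets, BNIP3 and BNIP3L, which direct mitochondria to autophagy, each had 1 probe set without overlap between groups and 1 with overlap. The dimmer BNIP3 probe set read 4512 and 4737 with MED1, against 5831 and 6090 with empty vector (-0.37 ± 0.09, limma adjusted p = 0.269). The brighter BNIP3 probe set read 9708 and 10282 with MED1 and 10378 and 9556 with empty vector, which overlap (0.0047 ± 0.10).
For BNIP3L the dimmer probe set read 2029 and 2129 with MED1, against 2693 and 2742 with empty vector (-0.38 ± 0.09, limma adjusted p = 0.22). The brighter BNIP3L probe set read 4094 and 4084 with MED1 and 4549 and 3756 with empty vector (-0.015 ± 0.11). The log2 ratio of the dimmer to the brighter probe set differed between groups by -0.37 for each gene, without overlap. These ratios restate the values above, with a lower probe set against one whose groups overlapped, and are given as a description. Which probe set follows the transcript was not tested, so neither gene is given 1 direction.
CA12, a membrane carbonic anhydrase, gave -0.13 to 0.15 over 5 tested probe sets. P4HA1, the collagen prolyl hydroxylase subunit, read 1556 and 1483 with MED1 and 1632 and 1465 with empty vector (-0.025 ± 0.10). ADM, the vasodilator peptide adrenomedullin, was below the filter, at 23.8 and 24.6 with MED1 and 30.0 and 44.6 with empty vector.

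**Figure D4:**
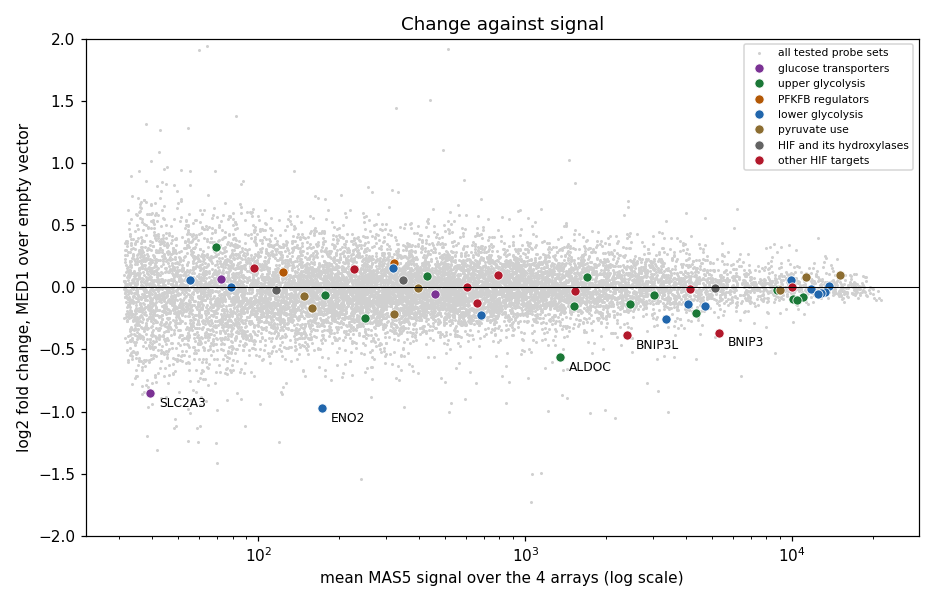
Log2 fold change of MED1 over empty vector (y axis) against the mean MAS5 signal over the 4 arrays (x axis, log scale), for the members (coloured by role) and all tested probe sets (grey; 5 beyond the y axis are not drawn). ENO2, SLC2A3, ALDOC, BNIP3L and BNIP3 stand lowest among the members, and the grey spread is widest at low signal.

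Further genes of the same pathways, taken from lists set beside the members, were read from the same fit. Of 26 further genes of glycolysis and pyruvate use, 14 were tested by 19 probe sets, and 0 passed (limma; 0 also at an unadjusted p of 0.05). The median over these genes was 0.020. DLAT, the acetyltransferase core of pyruvate dehydrogenase, had the lowest p among the values above 0 on that list, at 0.24 ± 0.11 (limma adjusted p = 0.58).

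Of 35 further genes of the HIF pathway, 27 were tested by 43 probe sets, and 1 passed, DDIT4, or 2.33%, beside 0.293% of all tested probe sets. At an unadjusted p of 0.05 in limma, 9 of the 43 were lower with MED1, or 20.9%, beside 5.20%, and 2 were higher. Together these were 25.6%, beside 9.20%. The 9 name DDIT4, GBE1, KDM4B, MXI1 and VLDLR, and PLOD2 and VEGFA by more than 1 probe set each. Probe sets of 1 gene are not independent, so these shares do not count genes. DDIT4, an inhibitor of mTORC1 induced by hypoxia and by amino acid stress, fell to 4873 and 4845 with MED1, against 8138 and 7840 with empty vector (-0.72 ± 0.09, limma adjusted p = 0.0158). Its adjusted p was 0.0783 without empty vector replicate 1 and 0.117 without empty vector replicate 2 (limma). VEGFA, the angiogenic growth factor, read 1419 and 1479 with MED1, against 2162 and 2033 with empty vector by its brightest probe set. Its log2 fold change was -0.53 ± 0.09 and missed the threshold (limma adjusted p = 0.0661). It passed with a filter at the 60th percentile (limma adjusted p = 0.0397), with robust eBayes (0.0496) and with a replicate block (0.00457). It did not pass with median centring (limma adjusted p = 0.152), no filter (0.294) or no variance trend (0.416). Nor did it pass with the other pseudocounts or quantile normalization. With 1 array left out the VEGFA log2 fold change was -0.57 to -0.48. The other VEGFA probe sets gave -0.57, -0.35 and -0.24 (limma adjusted p = 0.261, 0.599 and 0.856). The last, a dim one, read 19.5 and 40.3 with MED1 and 39.5 and 34.1 with empty vector, which overlap. The VEGFA probe sets measure 1 gene on the same arrays and are not independent. MXI1, a MYC antagonist, gave -0.36 ± 0.09 (limma adjusted p = 0.27). In the other direction, BHLHE40, a hypoxia-induced repressor, read 781 and 823 with MED1, against 636 and 524 with empty vector (0.46 ± 0.12, limma adjusted p = 0.269). KDM3A, a histone demethylase induced by HIF, gave 0.34 ± 0.14 (limma adjusted p = 0.477). Both MED1 arrays lay below both empty vector arrays on 19 of the 43 probe sets, or 44.2%, beside the 22.6% of all tested ones, and above on 7, or 16.3%, beside 17.2%. Some genes, such as VEGFA and PLOD2, have more than 1 probe set among the 19. An ARNT probe set among them read 40.7 and 9.49 with MED1, against 42.4 and 46.3 with empty vector. It passed the filter through its empty vector signal alone. So did dim VEGFA and FAM162A probe sets, and a dim BHLHE40 one through MED1 alone, all with overlapping groups. The median over the 27 genes, each by its brightest tested probe set, was -0.019.

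ENO2 is also used as a marker of neuroendocrine cells. Of 14 other such markers, 12 had a probe set and 2 were tested. DDC, the aromatic amino acid decarboxylase, which LNCaP cells express, read 1684 and 1791 with MED1, against 2143 and 2088 with empty vector (-0.28 ± 0.09, limma adjusted p = 0.401). SNAP25 gave -0.048 ± 0.27. The summed signal of all 17 probe sets of the list was 1849 and 1922 with MED1, against 2313 and 2294 with empty vector. Without DDC it was 159 and 128 with MED1, against 168 and 203 with empty vector, and no single value among those exceeded 53.5. The defining markers were near the bottom of the scale and not tested. CHGA, chromogranin A, read 3.47 and 5.58 with MED1 and 6.79 and 39.0 with empty vector. CHGB, chromogranin B, read 2.36 and 2.34 with MED1, against 17.3 and 21.0 with empty vector. SYP, synaptophysin, read 5.80 and 6.20 with MED1 and 4.56 and 2.16 with empty vector. UCHL1 was, like CHGA and CHGB, lower on both MED1 arrays. Dim second probe sets of DDC and SNAP25 were, like SYP, higher on both. No probe set of the list was at 0. The part of DDC-expressing cells in the ENO2 value was not tested.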

How the data were processed

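RNA of 4 LNCaP samples, 2 per group, was measured on an Affymetrix array. The deposited intensity values are MAS5 signals per probe set on a linear scale, per the submitters' processing notes (no version named). Further steps: not given in the sources used here. Arrays have no read depth, so their number limits the precision. No detection calls were used.

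Of 22277 rows, 62 Affymetrix controls were left out. Of the other 22215, 19064 named 1 gene. Symbols were updated through Entrez identifiers to RefSeq genes of GRCh38.p14 (19052 matched). Probe sets whose mean of log2(signal + 16) fell below the 40th percentile were not tested. The comparison used limma 3.58.1 (R 4.3.3), with lmFit and an intensity trend in eBayes. SE is limma's, tests are two-sided, and fold changes on log2(signal + 16) understate those of dim probe sets. The prior had 7.30 degrees of freedom and each probe set 2, and p-values reflect only how far duplicates differ, which could be technical. The procedure was tested on simulated data. Alternatives covered pseudocount, scaling, filter, variance model, replicate block, left-out arrays, calling rule and averaging of probe sets.

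The members and lists were chosen with earlier results of these data known. Named were MED1, all members, of the further lists the passing genes and the 3 of lowest unadjusted p in each direction, and passing markers. ENO3, KLK3, DDC, SNAP25, CHGA, SYP, other VEGFA probe sets and marker values were given outside that rule. So were the further HIF pathway genes named with a count or the filter. Lists are described by counts and medians, without a set test. Promoters came from RefSeq. Plots used matplotlib 3.10.9.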

Additional observations from a re-analysis of the deposited data

How the results depend on the processing

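The count of members that passed stayed at 0 with the other pseudocounts, both scalings, no filter, the 60th-percentile filter, no variance trend and robust eBayes (limma, all settings). It was 1 with a 1.5-fold difference in every array pair (ENO2) and 0 to 2 with 1 array left out. The fit with a replicate block gave 4 (ENO2, ALDOC, BNIP3 and BNIP3L), with ENO2 at -0.97 (limma adjusted p = 0.0086) and 239 calls in all. Same-numbered arrays deviated together at a correlation of 0.12 over 2 pairs, too few to treat the numbers as pairing. ENO2 was not tested with the 60th-percentile filter. With 1 array left out its log2 fold change was -1.18 to -0.76. In all, 39 probe sets passed, 0 with no filter, 5 without the trend, 73 by the 1.5-fold rule and 25 to 216 with 1 array left out, the lone sample being assumed to vary like the other group. Of the further pathway probe sets 1 passed, 0 with no filter and without the trend, 2 with the 60th-percentile filter, robust eBayes and the block, and 0 to 2 with 1 array left out. The member median of -0.012 was 0.040 with median centring, which moved the median of all tested probe sets to 0.036, and -0.060 with probe sets averaged. It was -0.072 to 0.026 with 1 array left out.

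Values near 0 that were not called turned direction. With median centring these were BNIP3L 0.036, EGLN3 0.027, ENO1 0.043, HIF1A 0.049, P4HA1 0.027, PDK3 0.050. With quantile normalization they were BNIP3 -0.026, EGLN3 0.017, GAPDH -0.0015, PDK3 0.016. With 1 array left out the brightest probe sets ran as follows: ALDOA -0.19 to 0.0061, EGLN1 -0.013 to 0.13, EGLN3 -0.18 to 0.13, ENO1 -0.077 to 0.058, HK2 -0.15 to 0.32, SLC2A1 -0.17 to 0.0695, BNIP3 -0.055 to 0.064, GAPDH -0.12 to 0.15, HIF1A -0.063 to 0.058, LDHA -0.0694 to 0.27, LDHB -0.018 to 0.19, P4HA1 -0.10 to 0.052, PDK3 -0.11 to 0.11, SLC2A3 -0.0661 to 0.20, BNIP3L -0.15 to 0.12, PDK1 -0.35 to 0.20, PFKM -0.16 to 0.033. The DDIT4 probe set did not pass with no filter (limma adjusted p = 0.175) or without the trend (0.301), and the MED1 probe set did not pass with either (0.381 and 0.358). The cause of these changes was not tested. Without detection calls, low signals have no known background.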
